A study of Homo sapiens with 6 samples.

Results

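The DNA mismatch repair genes described here are MSH6, MSH3, PMS2, PMS1 and MLH3, chosen by symbol as the 5 rows of the count table with these names, out of 60564 listed genes. All 5 passed the filter on low counts, as did 18786 genes in all. Their RNA was sequenced in CAL27, an established human cell line derived from a squamous carcinoma of the tongue. One group, CNTNAP2-203 OE, was infected with a lentivirus carrying CNTNAP2-203, a transcript of CNTNAP2, a gene of the neurexin superfamily. The other, control, was infected with a lentivirus carrying the control vector. Its genotype is labelled WT and its descriptions name EGFP. All cells were kept in DMEM with fetal bovine serum and selected with 5 μg/ml puromycin for 2 weeks as stable lines, and each group has 3 libraries. Nothing in the labels says that these came from separate infections or cultures, so the p-values measure the spread between libraries, which may be technical.

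Mismatch repair removes the wrong bases and small loops that DNA polymerases leave behind. Proteins of the MutS family find the error and proteins of the MutL family are then recruited to it, and both kinds work as heterodimers. MSH6 is the subunit that binds single-base mismatches and the smallest loops, and MSH3 the alternative subunit that favours longer loops. PMS2 carries the endonuclease that nicks the new strand. MLH3 is an alternative MutL subunit best known for meiotic crossovers, and PMS1 is a MutL homologue whose part in repair is less clear. Loss of this pathway leaves tumours with unstable microsatellites.

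Library totals were 36843190 to 42412703 counts in CNTNAP2-203 OE and 38769375 to 41754789 counts in control. The lowest total, and the largest distance from its own group, belonged to CNTNAP2-203 OE replicate 3. CNTNAP2 itself was at 140022, 156055 and 119280 counts in CNTNAP2-203 OE, against 0, 3 and 4 counts in control, which matches the labels. All 8 squamous epithelial markers (KRT5, KRT14, KRT6A, KRT17, TP63, CDH1, EPCAM and SFN) passed the count filter, and their summed level was 13800 to 17000 CPM in CNTNAP2-203 OE and 13700 to 15600 CPM in control. CPM are counts relative to the library total after TMM scaling, which evens out differences in library make-up. The squamous sum hides opposite shifts: 4 of the 8 markers had a log2 fold change above 0 and 4 below, with 0 called. KRT5 was at 5907 to 7012 CPM in CNTNAP2-203 OE and 4570 to 5522 CPM in control, and KRT17 at 1396 to 1857 and 2211 to 2397 CPM. TP63 was at 70.9 CPM in CNTNAP2-203 OE replicate 3, against 187.2 to 258.3 CPM in control. The sums of the 6 fibroblast, 6 leukocyte and 5 endothelial markers were 40.0 to 42.8, 23.2 to 30.1 and 7.75 to 11.5 CPM in CNTNAP2-203 OE, and 40.9 to 45.9, 23.8 to 34.1 and 6.10 to 9.58 CPM in control. A single gene held most of each of these sums: COL1A1 at 23.9 to 28.95 CPM in CNTNAP2-203 OE and 25.96 to 33.55 CPM in control, CD14 at 21.6 to 28.01 and 22.3 to 31.6 CPM, and CDH5 at 6.23 to 9.93 and 4.306 to 7.815 CPM. KDR was the only one of these markers with 0 counts in all 6 libraries. No marker of the 3 lists was called.

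None of the 5 genes passed the test between CNTNAP2-203 OE and control. Across all tested genes, 1.39% were called, 0.798% higher and 0.596% lower (edgeR quasi-likelihood test, Benjamini-Hochberg adjusted p under 0.05). MSH6 was the member with the largest difference and the 1 member with an unadjusted p under 0.05, a level that 17.2% of all tested genes reached. DESeq2, limma-voom and limma-trend also called 0 of the 5. The log2 fold change was above 0 in 3 of the 5 (MSH6, PMS1 and MSH3) and in 49.6% of all tested genes, and below 0 in PMS2 and MLH3. The median over the 5 was 0.07, against -0.0038 over all tested genes. The values are from bulk RNA, in which fewer cells expressing a gene and less of its RNA per cell cannot be told apart.

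The promoters are shown for the members that hold an E2F-type octamer, because E2F1, the transcription factor named in the title of the series, was higher in CNTNAP2-203 OE. E2F1 was at 47.9, 42.8 and 50.2 CPM in CNTNAP2-203 OE, against 23.5, 24.2 and 27.0 CPM in control. Its log2 fold change was 0.92 (edgeR adjusted p = 0.0174), and the call held without CNTNAP2-203 OE replicate 2 or 3 but not without any of the other 4 libraries (adjusted p up to 0.113). The octamers TTTCCCGC, TTTGGCGC, TTTCGCGC and TTTGCCGC were searched on both strands in the 300 bases from 250 before to 50 after each start that RefSeq gives (GRCh38.p14). At least 1 of them is in 3.31% of the 35116 windows. Of the 5 members, 3 hold one: MSH6, MSH3 and PMS2. Capitals mark the octamers, and all sequences read 5′ to 3′ on the strand of the gene.

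MSH6, plus strand, chr2:47782895-47783194, the most upstream of 4 RefSeq starts:
MSH6: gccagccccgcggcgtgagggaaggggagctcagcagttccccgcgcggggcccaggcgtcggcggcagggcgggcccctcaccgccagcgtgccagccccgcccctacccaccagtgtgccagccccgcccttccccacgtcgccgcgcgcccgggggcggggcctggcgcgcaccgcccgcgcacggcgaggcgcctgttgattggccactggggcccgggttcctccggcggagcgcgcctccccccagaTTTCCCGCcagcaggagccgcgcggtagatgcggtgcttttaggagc

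MSH3, plus strand, chr5:80654402-80654701:
MSH3: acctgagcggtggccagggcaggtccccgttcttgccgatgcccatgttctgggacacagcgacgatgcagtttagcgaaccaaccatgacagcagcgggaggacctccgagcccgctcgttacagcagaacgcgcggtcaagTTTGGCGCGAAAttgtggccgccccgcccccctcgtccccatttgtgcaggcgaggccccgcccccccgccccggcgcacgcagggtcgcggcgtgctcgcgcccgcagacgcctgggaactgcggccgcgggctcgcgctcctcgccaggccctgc

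PMS2, minus strand, chr7:6009057-6009356:
PMS2: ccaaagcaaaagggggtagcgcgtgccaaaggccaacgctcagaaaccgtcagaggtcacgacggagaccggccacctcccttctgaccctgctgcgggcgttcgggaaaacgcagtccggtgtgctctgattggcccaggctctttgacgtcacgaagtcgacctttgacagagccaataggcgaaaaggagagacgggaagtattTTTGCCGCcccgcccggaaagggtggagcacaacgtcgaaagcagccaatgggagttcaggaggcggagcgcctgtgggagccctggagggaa

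In MSH6 the octamer TTTCCCGC begins 3 bases after the annotated start. In MSH3, TTTGGCGC begins 107 bases before the start and shares 4 bases with TTTCGCGC on the other strand, so that the capitals form 1 run. In PMS2, TTTGCCGC begins 43 bases before the start. The windows of PMS1 and MLH3 held none of these letters in this order. The 3 members with an octamer had log2 fold changes of 0.50, 0.07 and -0.17, and the other 2 had 0.19 and -0.27. A match is a description of the letters and not a measured binding site.

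MSH6 (ENSG00000116062, chromosome 2 from 47695530 to 47810101, plus strand, protein-coding, in GENCODE 29 on GRCh38) was at 83.3, 126.0 and 125.4 CPM in CNTNAP2-203 OE, against 68.3, 87.9 and 80.7 CPM in control. CNTNAP2-203 OE replicates 2 and 3 lay above every control, while replicate 1 lay below control replicate 2, so the groups overlapped. The means were 111.6 ± 24.5 CPM in CNTNAP2-203 OE and 79.0 ± 9.91 CPM in control (SD, n = 3 each), a 1.41-fold difference. The log2 fold change was 0.50 (SE 0.177, 95% interval 0.09 to 0.91), with an unadjusted p of 0.0228 and an edgeR adjusted p of 0.210. The gene had 3527 to 5205 counts per library in CNTNAP2-203 OE and 2710 to 3471 in control. It became 0.67 when CNTNAP2-203 OE replicate 1 was left out (edgeR adjusted p = 0.128), and no library left out brought MSH6 past the threshold.

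MSH3 (ENSG00000113318, chromosome 5 from 80654648 to 80876460, plus strand), the other mismatch-binding subunit here, was at 25.8, 22.2 and 22.6 CPM in CNTNAP2-203 OE, against 19.1, 25.3 and 22.8 CPM in control. The highest value was in CNTNAP2-203 OE replicate 1 and the lowest in control replicate 1, and the other 4 libraries lay between them. The means were 23.5 ± 1.97 CPM in CNTNAP2-203 OE and 22.4 ± 3.12 CPM in control (SD, n = 3 each). The log2 fold change was 0.07 (95% interval -0.25 to 0.39, edgeR adjusted p = 0.831). It turned to -0.03 without control replicate 1.

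**Figure D1:**
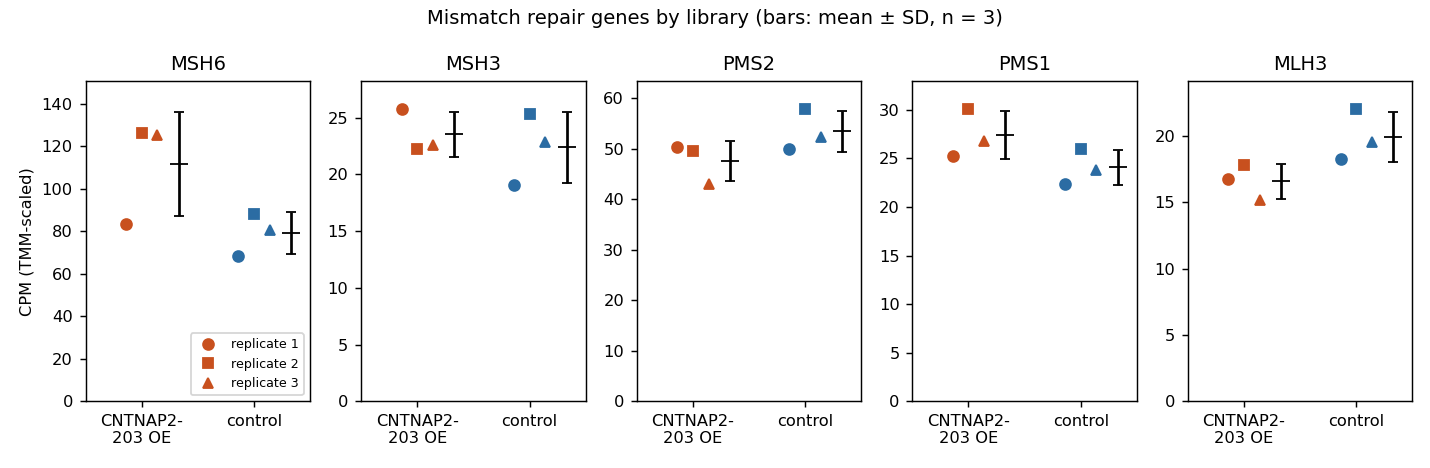
CPM of the 5 mismatch repair genes in each library, with CNTNAP2-203 OE in orange and control in blue, a symbol for each replicate, and the mean ± SD (n = 3) beside each group. Only in MLH3 do the groups separate, with all CNTNAP2-203 OE libraries below all controls, and MSH6 shows 2 CNTNAP2-203 OE libraries near 126 CPM and the third at 83.3 CPM.

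PMS2 (ENSG00000122512, chromosome 7 from 5973239 to 6009125, minus strand), the endonuclease subunit, was at 50.2, 49.5 and 43.1 CPM in CNTNAP2-203 OE, against 49.9, 58.0 and 52.4 CPM in control. CNTNAP2-203 OE replicate 3 was the lowest, and CNTNAP2-203 OE replicate 1 lay above control replicate 1. The means were 47.6 ± 3.95 CPM in CNTNAP2-203 OE and 53.4 ± 4.12 CPM in control (SD, n = 3 each). PMS2 had a log2 fold change of -0.17 (95% interval -0.42 to 0.09, edgeR adjusted p = 0.471). It was -0.10 without CNTNAP2-203 OE replicate 3 and -0.10 without control replicate 2.

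PMS2 counts are uncertain because the genome holds many partial copies of the gene, and the sources used here do not say how reads that fit several copies were counted. PMS2CL, the copy of the end of the gene, matches 59.3% of the longest protein-coding PMS2 transcript (2855 bases in GENCODE 29) at a mean identity of 97.9%. Together the 11 copies with a row in the table match 81.9% of that transcript at 95% identity or more, to which PMS2P2 and PMS2P6 add no match. PMS2CL was at 1178, 1127 and 854 counts in CNTNAP2-203 OE, against 1127, 1164 and 1226 counts in control, which is 26.5 CPM on average in CNTNAP2-203 OE and 28.97 CPM in control (log2 fold change -0.13, edgeR adjusted p = 0.572). Of the 11 copies 9 passed the count filter and 0 were called. The log2 fold change was above 0 in 6 of them, and ranged over -0.22 for PMS2P3 to 0.34 for PMS2P7. The largest after PMS2CL were PMS2P1 at 6.90 and 6.05 CPM in CNTNAP2-203 OE and control, PMS2P3 at 4.26 and 4.96 CPM, and PMS2P4 at 2.58 and 2.79 CPM. PMS2P3 had 85 counts in CNTNAP2-203 OE replicate 3, against 184 to 227 counts in the other 5 libraries. PMS2P2, PMS2P5, PMS2P6, PMS2P7 and PMS2P10 averaged under 2 CPM in either group, and PMS2P9 and PMS2P11 did not pass the filter.

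PMS1 (ENSG00000064933, chromosome 2 from 189784085 to 189877629, plus strand) was at 25.2, 30.1 and 26.8 CPM in CNTNAP2-203 OE, against 22.4, 26.0 and 23.8 CPM in control. CNTNAP2-203 OE replicates 2 and 3 were the highest of the 6, and replicate 1 lay below control replicate 2. The means were 27.4 ± 2.48 CPM in CNTNAP2-203 OE and 24.1 ± 1.80 CPM in control (SD, n = 3 each). The log2 fold change was 0.19 (95% interval -0.09 to 0.46, edgeR adjusted p = 0.464).

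MLH3 (ENSG00000119684, chromosome 14 from 75013764 to 75051532, minus strand), the MutL subunit of meiotic crossovers, was at 16.8, 17.8 and 15.2 CPM in CNTNAP2-203 OE, against 18.2, 22.01 and 19.5 CPM in control. Every CNTNAP2-203 OE library lay below every control. This was so for 1 of the 5 members and for 12.8% of all tested genes, while 26.5% of the tested genes separated in either direction. The means were 16.6 ± 1.34 CPM in CNTNAP2-203 OE and 19.9 ± 1.91 CPM in control (SD, n = 3 each). MLH3 had a log2 fold change of -0.27 (95% interval -0.57 to 0.03, unadjusted p = 0.0755, edgeR adjusted p = 0.346).

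**Figure D2:**
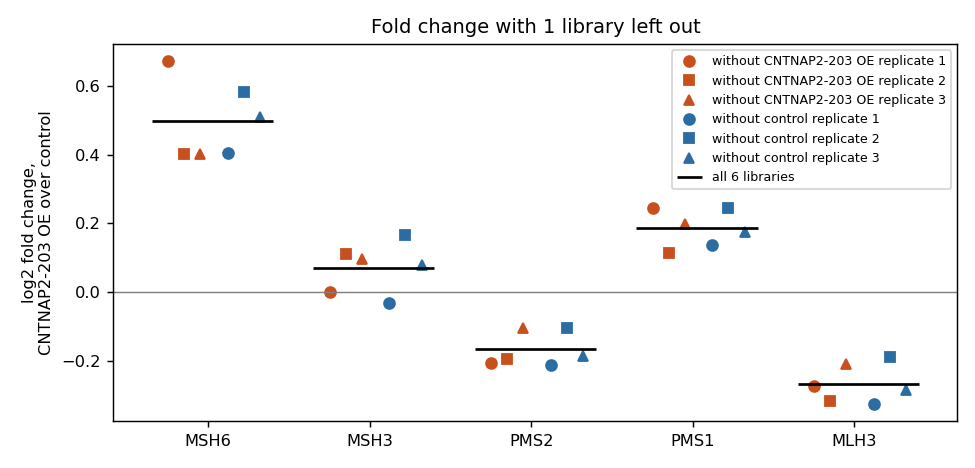
Log2 fold change (CNTNAP2-203 OE over control) of each member with all 6 libraries (black line) and with 1 library left out (orange symbols for a CNTNAP2-203 OE library, blue for a control). MSH6 ranges over 0.40 to 0.67 and stays above 0, MLH3 and PMS2 stay below 0, and MSH3 lies on both sides of 0.

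Per length, MSH6 and PMS2 were the most abundant of the 5 and MLH3 the least. On the FPKM scale (counts scaled by gene length and library size, from the authors' log2 table), CNTNAP2-203 OE had 8.14 ± 1.74 for MSH6, 6.15 ± 0.705 for PMS2, 4.03 ± 0.446 for PMS1, 3.56 ± 0.354 for MSH3 and 1.59 ± 0.180 for MLH3. Control had 5.94 ± 0.764 FPKM for MSH6, 7.09 ± 0.582 for PMS2, 3.64 ± 0.287 for PMS1, 3.49 ± 0.498 for MSH3 and 1.97 ± 0.200 for MLH3 (SD, n = 3 each). On this scale the means of MSH6 and PMS2 thus stood in opposite order in the 2 groups. In FPKM, MSH6 was above PMS2 in CNTNAP2-203 OE replicates 2 and 3 and below it in replicate 1 and in all 3 controls. This order depends on the gene lengths used, since in raw counts MSH6 was above PMS2 in every library. The ratio of raw counts was 1.66 to 2.91 in CNTNAP2-203 OE and 1.37 to 1.54 in control, and PMS2 counts are uncertain. The means of PMS1 and MSH3 differed by more than either SD in CNTNAP2-203 OE and by less than either SD in control. MLH3 was the lowest of the 5 in every library.

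The balance between the members was compared as ratios of raw counts within a library, which need no scaling between libraries. The ratio of MSH6 to MSH3, the alternative mismatch-binding subunits, was 3.23, 5.67 and 5.56 in CNTNAP2-203 OE, against 3.58, 3.48 and 3.54 in control. The controls were nearly equal, 2 CNTNAP2-203 OE libraries were above them and 1 was below. The log2 ratio differed by 0.40 between the group means (two-sided exact permutation test, p = 0.4), and 3 libraries against 3 cannot give a p below 0.1.

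The ratio of PMS2 to PMS1 was 1.99, 1.64 and 1.60 in CNTNAP2-203 OE, against 2.23, 2.23 and 2.20 in control. All CNTNAP2-203 OE libraries were below the controls, with a log2 difference of -0.35 (exact permutation p = 0.1, the smallest possible; adjusted over the 10 pairs of members, p = 0.143). The ratio of MSH6 to MLH3 was 4.96, 7.08 and 8.28 in CNTNAP2-203 OE, against 3.74, 3.99 and 4.13 in control, with a log2 difference of 0.74 and the same exact permutation p = 0.1. Of the 10 pairs 7 did not overlap between the groups and 0 had an adjusted p under 0.05, which this design cannot reach. Among the count ratios of all pairs of the 18468 tested genes with a count in every library, 23.6% did not overlap between the groups. The pairs of members are not independent, since each gene enters 4 of them, and all pairs other than MSH6 to MSH3 were added after the data had been seen.

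**Figure D3:**
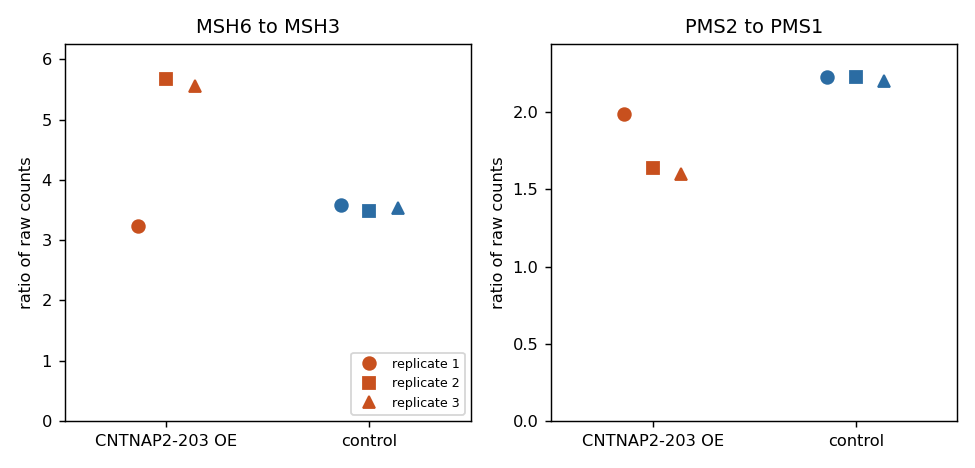
Ratio of raw counts within each library for MSH6 to MSH3 and for PMS2 to PMS1, with CNTNAP2-203 OE in orange, control in blue and a symbol for each replicate. The controls lie close together at 3.48 to 3.58 and at 2.20 to 2.23, while CNTNAP2-203 OE spans 3.23 to 5.67 and 1.60 to 1.99.

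A neighbouring or overlapping gene was compared for MSH6, PMS1, PMS2 and MLH3. The kit used for the libraries keeps no strand information, so reads from shared exonic bases cannot be assigned by strand. MSH6 and FBXO11, an F-box gene of protein ubiquitination, lie on opposite strands and share 1785 exonic bases, 16.2% of those of MSH6. FBXO11 was at 49.8, 47.6 and 36.3 CPM in CNTNAP2-203 OE, against 53.0, 55.4 and 55.6 CPM in control. All of its CNTNAP2-203 OE libraries were below the controls (log2 fold change -0.30, edgeR adjusted p = 0.302), in the direction opposite to MSH6. The ratio of MSH6 to FBXO11 was 1.67, 2.65 and 3.45 in CNTNAP2-203 OE, against 1.29, 1.59 and 1.45 in control (log2 difference 0.79). The two-sided exact permutation p was 0.1, the smallest possible, and 0.2 when adjusted over 4 neighbour pairs. Among the count ratios of all gene pairs, 23.6% did not overlap between the groups.

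PMS1 and ORMDL1, a regulator of sphingolipid synthesis, have 286 bases between their 5′ ends and share 103 exonic bases. ORMDL1 had a log2 fold change of 0.26 (95% interval -0.29 to 0.81, edgeR adjusted p = 0.611). AIMP2, a scaffold of the tRNA synthetase complex, begins 120 bases from PMS2 on the other strand, shares no exonic base with it and had a log2 fold change of 0.16 (edgeR adjusted p = 0.545). ACYP1, an acylphosphatase, lies on the same strand as MLH3, does not overlap it, and was at 15.8, 14.4 and 20.6 CPM in CNTNAP2-203 OE, against 13.8, 14.1 and 13.6 CPM in control (log2 fold change 0.29, edgeR adjusted p = 0.389). The count ratio of MLH3 to ACYP1 also separated the groups (log2 difference -0.54, exact permutation p = 0.1). Those of PMS1 to ORMDL1 and of PMS2 to AIMP2 overlapped (exact permutation p = 0.9 and 0.2).

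**Figure D4:**
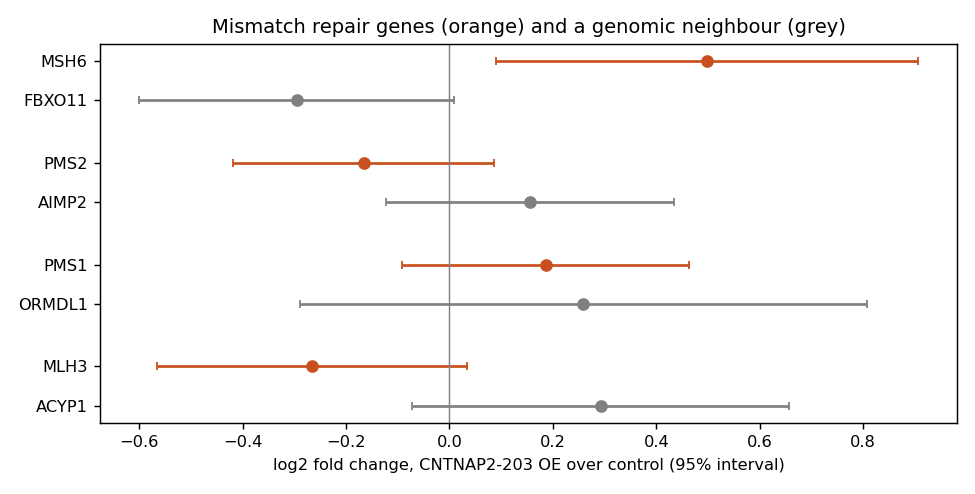
Log2 fold change (CNTNAP2-203 OE over control) with 95% intervals from the edgeR fit for 4 members (orange) and a genomic neighbour of each (grey). MSH6 at 0.50 and FBXO11 at -0.30 lie on opposite sides of 0, and so do MLH3 at -0.27 and ACYP1 at 0.29.

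A list of 16 genes covers excision and resynthesis, the removal of the marked strand and the filling of the gap, with factors that assist them. Of these 16, 8 were called higher in CNTNAP2-203 OE and 0 lower, where 0.798% of all tested genes were called higher and 0.596% lower. The 8 are EXO1, the exonuclease of mismatch repair, PCNA, the sliding clamp, the clamp loader subunits RFC3, RFC4 and RFC5, POLD1, the catalytic subunit of DNA polymerase delta, LIG1, the ligase that seals the nick, and HMGB1, a chromatin protein that bends DNA. Most of these proteins also act in DNA replication. The median log2 fold change of the 16 was 0.57 and that of the 5 members 0.07. The number of calls depends on single libraries. Leaving out control replicate 1, 2 or 3 or CNTNAP2-203 OE replicate 1 left 0 of the 16 called. Leaving out CNTNAP2-203 OE replicate 2 left 1, and leaving out replicate 3 left 8. Over all tested genes, the 150 called higher became 12, 8, 12, 16, 43 and 310 in the same fits, in that order. The log2 fold change of EXO1 was 0.77 to 0.89 over these fits (edgeR adjusted p 0.0175 to 0.134).

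EXO1 was at 38.7, 36.6 and 37.8 CPM in CNTNAP2-203 OE, against 19.9, 23.5 and 20.8 CPM in control (log2 fold change 0.82, SE 0.110, edgeR adjusted p = 0.0214). PCNA was at 241.9, 239.1 and 311.5 CPM in CNTNAP2-203 OE, against 125.5, 133.8 and 130.2 CPM in control (log2 fold change 1.02, edgeR adjusted p = 0.0172). RFC3 was at 59.6, 54.7 and 56.9 CPM in CNTNAP2-203 OE, against 31.0, 35.8 and 30.9 CPM in control (log2 fold change 0.81). In these 3 genes, which had the smallest p of the list, the groups did not overlap.

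Of the 8 that did not pass, RFC2, RPA1, RPA2, RPA3 and POLD2 lay above the controls in every CNTNAP2-203 OE library, with log2 fold changes of 0.35 to 0.64. POLD3, RFC1 and POLD4 overlapped, with 0.49, 0.04 and -0.03. In all, 13 of the 16 genes had every CNTNAP2-203 OE library above every control, against 13.7% of all tested genes. RefSeq promoter windows were at hand for 13 of the 16 genes, and 4 hold one of the E2F-type octamers: EXO1, PCNA, RFC3 and LIG1. These 4 are among the called genes, but 8 of the 13 genes with a window were called. A link between octamer and call was not tested.

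**Figure D5:**
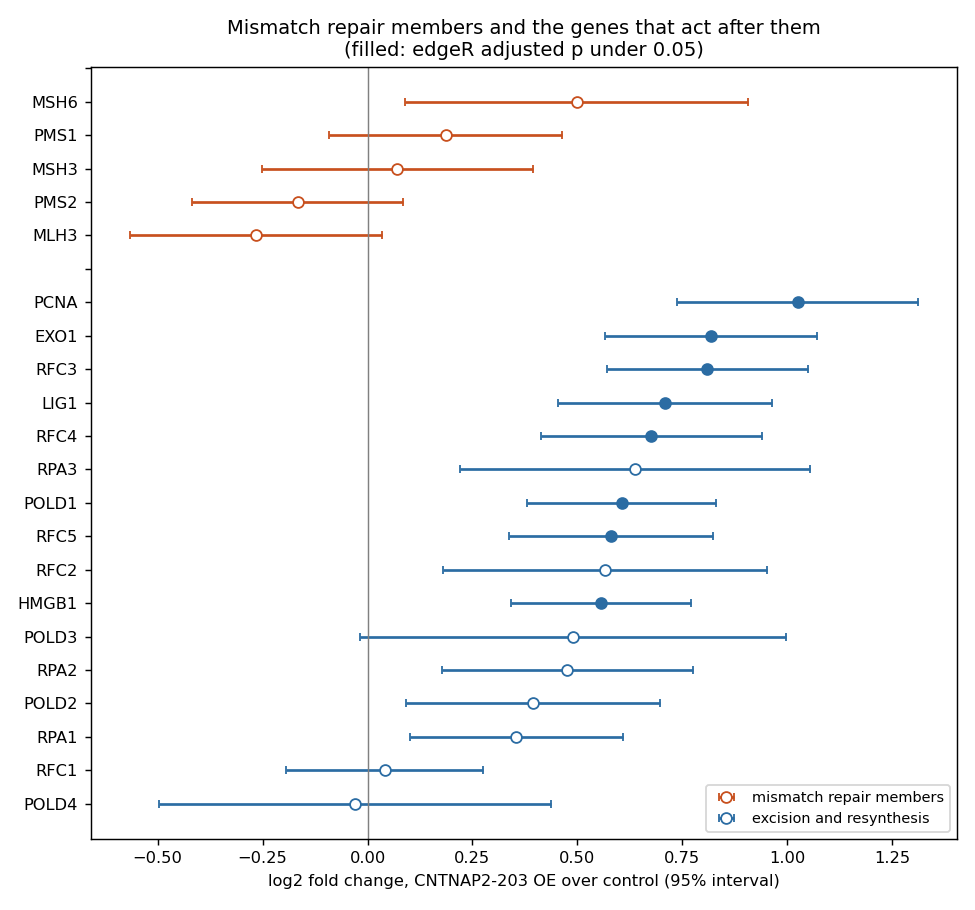
Log2 fold change (CNTNAP2-203 OE over control) with 95% intervals from the edgeR fit for the 5 members (orange, above) and the 16 excision and resynthesis genes (blue, below), with filled points for an adjusted p under 0.05. The members lie between -0.27 and 0.50 with no filled point, and 8 of the 16 points below are filled, at 0.56 to 1.02.

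Among 11 genes that recruit or assist mismatch repair or act on the same DNA, 2 were called higher and 0 lower, with a median log2 fold change of 0.07. BLM, a helicase, was at 29.4, 27.7 and 28.5 CPM in CNTNAP2-203 OE, against 15.0, 15.5 and 13.5 CPM in control (log2 fold change 0.96, edgeR adjusted p = 0.0160). CHAF1A, the large subunit of the chromatin assembly factor, was at 92.2, 99.7 and 95.4 CPM in CNTNAP2-203 OE, against 59.7, 59.9 and 61.7 CPM in control (log2 fold change 0.66, edgeR adjusted p = 0.0211). MCM8 followed with 0.49 (edgeR adjusted p = 0.0876). SETD2, the histone methyltransferase whose mark is read by MSH6, was at 51.4 ± 7.29 CPM in CNTNAP2-203 OE and 58.2 ± 5.22 CPM in control (SD, n = 3 each; edgeR adjusted p = 0.521). It was chosen for naming with its values known.

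Of 12 genes of the other routes that remove mispaired or alkylated bases, 1 was called higher and 0 lower, and the median log2 fold change was 0.20. It was UNG, the uracil glycosylase, at 71.0, 62.6 and 80.9 CPM in CNTNAP2-203 OE, against 40.1, 48.0 and 45.4 CPM in control (log2 fold change 0.69, edgeR adjusted p = 0.0496). UNG did not pass with DESeq2 size factors in edgeR (adjusted p = 0.0504), by limma-voom (adjusted p = 0.0552) or by limma-trend on the deposited log2 values (adjusted p = 0.0604). NTHL1 and SMUG1, which remove oxidised bases and uracil, had 0.45 and 0.47 and did not pass (edgeR adjusted p = 0.223 and 0.301). Without CNTNAP2-203 OE replicate 3, BLM, CHAF1A and UNG all passed; BLM also passed without replicate 2, and each of these calls was lost in the other fits that leave out 1 library (edgeR adjusted p up to 0.1, 0.134 and 0.215).

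The meiotic MutS homologues did not pass. MSH5 was at 23.1, 23.3 and 16.1 CPM in CNTNAP2-203 OE, against 26.4, 23.9 and 26.1 CPM in control (log2 fold change -0.29, edgeR adjusted p = 0.401). MSH4 had 3, 0 and 0 counts in CNTNAP2-203 OE, against 0, 0 and 3 counts in control, and was not tested.

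The genes most like each member over the 6 libraries were taken as those with the smallest root mean square difference in centred log2 CPM, among 12477 other genes. For MSH6 they were KDM8 (0.0462), COX16 (0.111) and KCTD13 (0.116), against a median difference of 0.371 over all these genes. For MSH3 they were ARL1 (0.0250), AP1S2 (0.0394) and TMEM116 (0.0427), with a median of 0.247 over all. For PMS2 they were AMMECR1 (0.0240), USO1 (0.0292) and RAP2C (0.0292), for PMS1 FAM98A (0.0270), GOLT1B (0.0342) and ZNF786 (0.0412), and MYO10 (0.0270) was among the 3 for MLH3. None of the genes named here for likeness was called. This follows largely from the choice, since they were picked for values close to those of members that were not called. No excision or resynthesis gene is among the genes named for likeness, which says little because only 3 genes per member were taken from 12477.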

How the data were processed

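Values are for 3 CNTNAP2-203 OE and 3 control libraries, grouped by sample title. Per the labels' protocols, ribosomal RNA was removed and libraries were prepared with TruSeq RNA Sample Prep v2, an unstranded kit. Per the submitters' processing notes, Trim Galore 0.4.4 and the build hg38 were used. The sources used here name no aligner or counter. The reverse reads of control replicate 1 were missing at submission, per the labels. Whether its counts used both reads is not stated there. The authors deposited raw counts for 60564 Ensembl genes and log2 values, which relate to the counts as log2(FPKM + 1): with this offset the implied gene length varied by 0.221% between libraries, and by 1.85% with none.

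Counts were tested with edgeR 4.0.16 (R 4.3.3): filterByExpr with a minimum count of 10, TMM, robust quasi-likelihood test, group as the only term, and Benjamini-Hochberg adjustment over 18786 genes at 0.05. The scripts were tested on simulated data. SE is the absolute log2 fold change over the square root of F, and 95% intervals use the test's degrees of freedom. Alternatives used DESeq2 1.42.0 and limma 3.58.1. PMS2 copies were aligned with blastn 2.17.0. Coordinates are from GENCODE 29 and promoters from RefSeq. The members and lists were chosen with earlier results of these data known. Named genes are the members, CNTNAP2, E2F1, called list genes and the 3 with the smallest p of each list, the neighbours, the PMS2 copies and the 3 genes most like each member (average log2 CPM of at least 1). The remaining MutS and MutL homologues, and some other genes that this rule names, are not reported here.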

Additional observations from a re-analysis of the deposited data

How the results depend on the processing

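The 5 members passed the threshold under none of 12 alternatives each (60 values, smallest adjusted p 0.122 for MSH6 by DESeq2). Their direction held in all but 1: MSH3 turned to -0.03173 without control replicate 1. Leaving out 1 library gave log2 fold changes of 0.4023 to 0.6722 for MSH6, -0.03173 to 0.1669 for MSH3, -0.2125 to -0.1035 for PMS2, 0.114 to 0.2447 for PMS1 and -0.3248 to -0.1882 for MLH3, and a log2 difference of 0.2633 to 0.6692 in the ratio of MSH6 to MSH3. Over all genes, 150 higher and 112 lower calls became 650 and 475 by DESeq2, 84 and 81 by limma-trend on the deposited log2 values, and 8 to 310 and 6 to 235 with 1 library left out. The 8 excision and resynthesis calls became 11 by DESeq2, 7 by limma-voom and 5 by limma-trend on the log2 values. They stayed at 8 with DESeq2 size factors in edgeR and with no filter on low counts, and became 0 to 8 with 1 library left out. With the replicate number as a block, 11 genes were called higher and 6 lower, 0 of the excision and resynthesis genes among them. Same-numbered libraries correlated in their deviations from the group means at -0.0824, 0.0454 and -0.0283. These values show no strong shared variation, but they cannot tell whether same-numbered libraries were handled together. The highest counts came without CNTNAP2-203 OE replicate 3, and the cause of these shifts was not tested. With 3 libraries a group, ratios could not reach p under 0.1.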
